A study of Mus musculus with 6 samples.

Results

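The reads described here are short RNAs bound to Argonaute proteins in mouse brain that the deposited annotation placed in the mRNA class and that carried no miRNA label. They were chosen by 2 entries of the annotation alone, the class mRNA_ensembl and the miRNA entry noMatch, and no measured value entered the choice. The rule took 28142 of 143934 distinct read sequences, while 60110 sequences carried a miRNA label and 55682 belonged to other classes without one. The samples were 6 small RNA libraries from the combined cortex and hippocampus of male C57BL/6J mice, 3 from mice aged 2 months (2M) and 3 from mice aged 18 months (18M). Neither age carried a transgene or a treatment in the labels. Argonaute complexes were pulled down with a FLAG-tagged peptide of GW182, the scaffold protein that binds Argonaute, and their RNAs were sequenced (Ago-RP-Seq). The labels did not say whether each library came from its own animal, so p-values measure the spread between these libraries, which may be technical.

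Argonaute proteins hold a short guide RNA in the RNA-induced silencing complex (RISC). Bases 2 to 7 of the guide, the 6mer seed, pair with target mRNAs. In brain most guides are miRNAs, which are cut from hairpin precursors that often lie in introns or exons of longer transcripts, but pieces of mRNAs, tRNAs and other RNAs can be loaded as well. The 6mer seed viability is the percent of cells that survive a small RNA with a given seed, averaged over mouse cell lines, and seeds of low viability act through death induced by survival gene elimination (DISE). Adenosine deaminases acting on RNA (ADARs) turn some adenosines of brain RNAs into inosine, which is read as G.

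The sequences below come from reads near miRNA hairpins and from exact pieces of mRNAs, the groups whose match in the mouse could be shown. None is printed from the larger group with no match. In the pairs of the first set a read with a miRNA label stands above a read of the mRNA class that differs from it by 1 base, and the capitals mark that base or, for miR-29a-3p, the run of A that lost a base. Bases are counted from 1 at the miRNA's 5′ end, with the base of the miRNA first.
mmu-miR-3099-3p reference read: taggctAgagagaggttgggga
mmu-miR-3099-3p A7G, named Castor2: taggctGgagagaggttgggga
mmu-let-7b-5p reference read: tgaggtagtAggttgtgtggtt
mmu-let-7b-5p A10G, named Elp3: tgaggtagtGggttgtgtggtt
mmu-miR-222-3p reference read: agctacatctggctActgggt
mmu-miR-222-3p A15G, named Atp2a1: agctacatctggctGctgggt
mmu-miR-376b-3p reference read: atcatAgaggaacatccac
mmu-miR-376b-3p A6G, named F8: atcatGgaggaacatccac
mmu-miR-22-3p reference read: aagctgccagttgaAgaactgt
mmu-miR-22-3p A15G, named Mir22hg: aagctgccagttgaGgaactgt
mmu-miR-125a-5p reference read: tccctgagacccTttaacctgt
mmu-miR-125a-5p T13C, named Spaca6: tccctgagacccCttaacctgt
mmu-miR-29a-3p reference read: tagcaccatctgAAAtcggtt
mmu-miR-29a-3p with 1 base less, named Mvk: tagcaccatctgAAtcggtt

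A second, smaller set matched the named mRNA without a change, and the capitals mark the 6mer seed.
Ctsl fragment: aCCTCCGgggatccgagtttgc
Selenom fragment: tCCCGCCctttctccatcttag
Wdr45b fragment: tAGCGCCgcgcgaccggaga
Tppp fragment: tGGGTTAgcacacatgtgtgt
mt-Co1 fragment: gCAATAAtgtctattggct
mt-Atp8 fragment: aTGCCACaactagatacatc

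The libraries held between 19272046 and 25080484 reads, recovered from the steps of the deposited values, which are in RPM (reads scaled to a fixed library total). Reads of the mRNA class without a miRNA label summed to 7647, 7333 and 7075 RPM in 2M replicates 1 to 3, and to 8953, 5745 and 6485 RPM in 18M replicates 1 to 3. They took 0.735% ± 0.029 of the 2M libraries and 0.706% ± 0.168 of the 18M libraries (SD over 3 each), with overlap (two-sided exact permutation test, p = 0.8, where the smallest p that 3 against 3 libraries can give is 0.1). A difference in amount between tissue samples cannot be assigned to fewer cells of a type or to less RNA per cell. The annotation named 7079 transcripts of 6349 genes. Of these genes 2583 were named by 1 read sequence, 1057 had a mean of at least 1 RPM and 100 had at least 10 RPM. The 10 largest genes held 21.8% of the RPM and the 100 largest held 48.2%. The reads were 15 to 36 nt long, 9272 of the sequences were present in all 6 libraries, and 63 had a mean of at least 10 RPM.

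The label was checked against the transcripts it names. For 27575 of the sequences the named transcript was found in the GENCODE M21 annotation of GRCm38, and only 1118 of them (4.05%), with 3.01% of the RPM, matched it without a change. Another 8.05% of sequences stood 1 change away, a substituted, missing or inserted base, and 37.4% stood over 4 changes away. The longest exact run in the named transcript had a median of 14 nt (interquartile range 14 to 15) for reads with a median length of 21 nt. Of the 1057 genes with at least 1 RPM, 933 had no exact read and 27 had at least 50% of their RPM in exact reads. A gene named here is therefore the annotation's nearest entry, not a measured source of the read. The deposited entries carry the tag mm9, and the comparison was made on GRCm38 transcripts, so small differences between builds add to these counts.

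Each sequence was then placed in the first group it matched, beginning with miRNA hairpins of RefSeq, then the named transcript, then any other transcript. Reads within 1 change of a hairpin made up 2754 sequences and 1395 RPM, 19.4% of the RPM, and reads 2 changes away made up 1997 sequences and 392 RPM. Exact matches to the named transcript made up 1034 sequences and 200 RPM (2.77%), and exact matches to another transcript only made up 578 sequences and 145 RPM (2.01%). Another 74 sequences with 11.7 RPM lay exactly within a hairpin. The largest group had none of these matches, with 21705 sequences and 5063 RPM (70.3%). No reference of another organism was used, so matches outside the mouse were not tested.

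**Figure D1:**
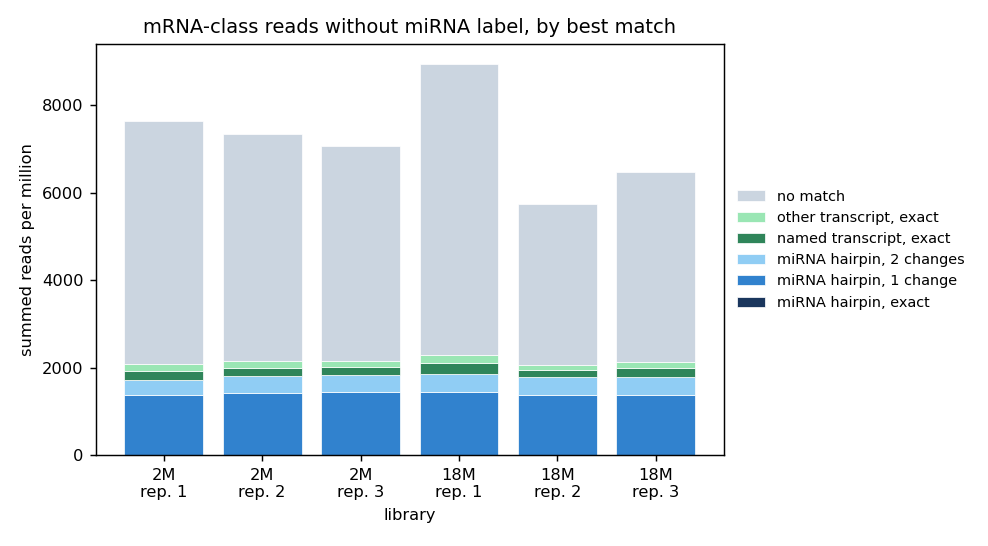
Summed RPM of the reads of the mRNA class without a miRNA label, by best match, as 1 stacked bar per library. Reads with no match were spread most, from 3684 to 6663 RPM, and reads 1 change from a miRNA hairpin lay between 1359 and 1431 RPM in all 6 libraries.

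The reads 1 change from a hairpin were even across libraries, averaging 1403 ± 38.9 RPM in the 2M group and 1387 ± 33.5 RPM in the 18M group (SD, n = 3 each, p = 0.8 by exact permutation). Those 2 changes away were 347, 378 and 388 RPM at 2M and 411, 416 and 414 RPM at 18M. All 18M libraries lay above all 2M libraries, and the difference did not pass after adjustment over the 6 match groups (exact permutation test, p = 0.1, the smallest possible, adjusted p = 0.6). Reads with no match held 5568, 5189 and 4924 RPM at 2M and 6663, 3684 and 4349 RPM at 18M. The 18M replicates stood at both ends of that range, with replicate 1 the highest and replicate 2 the lowest of the 6.

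The reads near hairpins fell into those named for a transcript that holds the miRNA and those named for any other transcript. In the first kind, 1334 sequences of 15 genes with 797 RPM, the named transcript holds the mature miRNA. The largest was Mir22hg, the host of Mir22 (chr11:75463716-75463810, plus strand, GRCm38.p6), with 366, 359 and 302 RPM at 2M and 303, 248 and 290 RPM at 18M. Of its RPM 96.0% stood 1 change from a miRNA hairpin. The gene had 282 sequences in all, and the largest held 6.83% of its RPM. Spaca6, whose longer transcript carries Mir125a (chr17:17830812-17830879, plus strand), had 213, 230 and 228 RPM at 2M and 198, 219 and 154 RPM at 18M. Gm13648, which carries Mir429 (chr4:156053905-156053987, minus strand), ranged from 80.5 to 137 RPM over the 6 libraries. In none of these 3 hosts were the ages separate. Vmp1, an autophagy gene whose transcript extends over Mir21a (chr11:86584067-86584158, minus strand), had 89.1, 83.6 and 208 RPM at 2M and 108, 92.6 and 113 RPM at 18M. In 2M replicate 3 reads labelled miR-21a-5p were also high, at 7690 RPM beside 4256 to 5376 RPM in the other 5. Of the 208 RPM of Vmp1 there, 148 RPM were substituted forms of miR-21a-5p, which held 81.4 to 104 RPM elsewhere, and 52.8 RPM were a substituted form of miR-21a-3p. The part of either in the age values was not tested. Smaller hosts were 5031439G07Rik with Mir1249, Eml2 with Mir330 and Mcm7 with Mir93, at 24.3, 16.6 and 10.1 RPM of reads near their own hairpin.

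In the second kind, 3491 sequences of 1856 genes with 1002 RPM, the named transcript does not hold a mature miRNA of the hairpin. Introns of the named genes were not searched. Trpm3, a cation channel gene, had 112, 96.9 and 117 RPM at 2M and 135, 156 and 120 RPM at 18M, and its reads stood nearest to miR-3099-3p. Elp3, the acetyltransferase of the Elongator complex, had 95, 83.6 and 85.3 RPM at 2M and 122, 151 and 130 RPM at 18M, with 82.7% of the RPM 1 change from let-7b. No 2M library of either gene reached the lowest 18M library. Reads of both kinds differed between ages in opposite directions, from 861 ± 55.6 to 733 ± 33.6 RPM in host transcripts and from 926 ± 40.8 to 1079 ± 15.2 RPM in the others, 2M given first (SD of 3 libraries, p = 0.1 by exact permutation for each, the smallest possible).

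Of the RPM 1 change from a hairpin, 83.1% carried a substitution before the last 3 bases and 16.0% a missing base. Where a read of the mRNA class and a miRNA reference differed by 1 substitution, the annotation given to the substituted read depended on the position. Substitutions at bases 1, 2 and 3 kept the miRNA label in 99.9%, 99.1% and 91.0% of their RPM, and only 0.068, 0.628 and 1.76 RPM fell to the mRNA class. At base 5 the label was kept in 0.0153% of the RPM. The mRNA class took most at base 7, with 276 RPM from 249 sequences, and at base 10, with 177 RPM from 247 sequences. Single substitutions made up most of both, 215 RPM of miR-3099-3p A7G and 104 RPM of let-7b-5p A10G, and without them 60.5 RPM remained at base 7 and 72.9 RPM at base 10, below the 123 RPM at base 9 and 110.1 RPM at base 6. At bases 12 and 17 the miRNA label again held 88.9% and 84.3%.

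**Figure D2:**
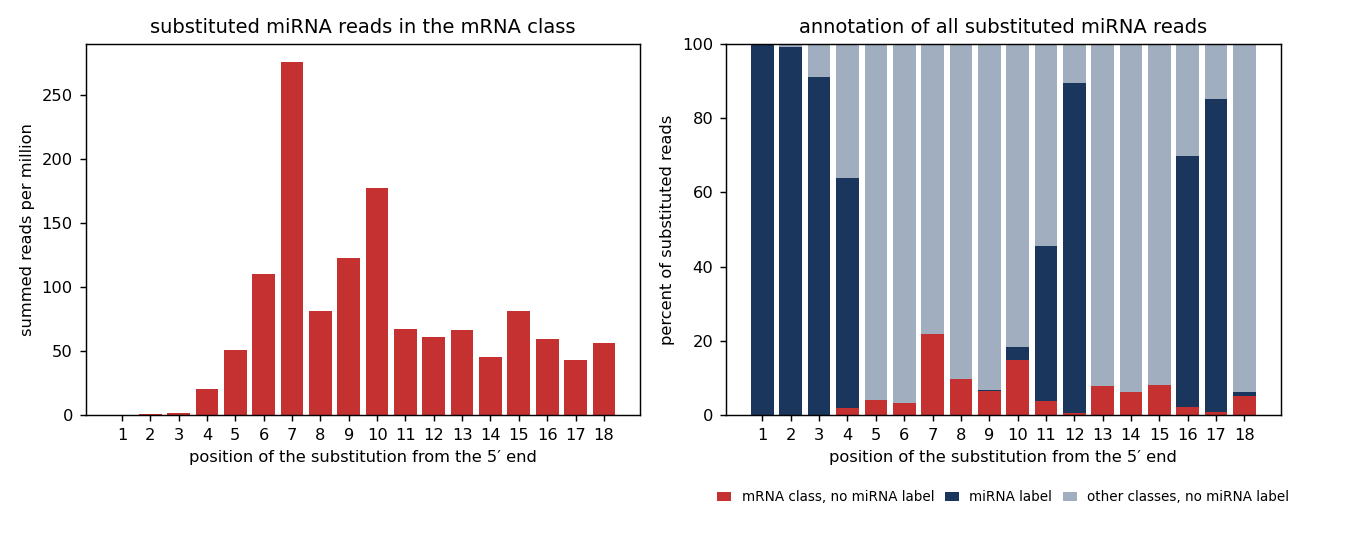
Reads 1 substitution from a miRNA reference, by the position of the substitution from the miRNA's 5′ end, as summed RPM in the mRNA class (left) and as the percent of all such reads by annotation (right), means of 6 libraries. Reads of the mRNA class were nearly absent at bases 1 to 3 and highest at base 7 with 276 RPM, of which 215 RPM was miR-3099-3p A7G.

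A-to-G was the commonest substitution, with 568 RPM or 43.0% of the substituted RPM in the mRNA class, followed by T-to-C with 14.4%, C-to-T with 9.05% and C-to-A with 8.41%. Of the 568 RPM, 215 RPM was miR-3099-3p A7G and 104 RPM was let-7b-5p A10G, so these made up much of the A-to-G share. Over substituted reads of all annotations T-to-C was the commonest with 34.4%, followed by A-to-G with 25.8% and G-to-A with 16.4%. Of 3185 sequences 1 substitution from a read with a miRNA label, the 3114 far below that neighbour in RPM were compared with it. This filter left out reads nearer to or above their neighbour, such as miR-3099-3p A7G named Castor2 (33.5 beside 10.5 RPM). Within the filter the median substituted read had 0.0882% of the RPM of its labelled neighbour (interquartile range 0.0529% to 0.151%). Of those 3114 sequences, 716 with 242 RPM were changed within the seed. Their mean viability was 54.2%, and the labelled neighbours' seeds, weighted the same way, had 52.2%. These means leave out the seed changes of filtered reads, such as 65.0% to 55.3% for miR-3099-3p A7G.

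A few A-to-G substitutions are given by their share summed over all reads of the miRNA, a measure unlike that ratio of single sequences. miR-3099-3p A7G took 74.8%, 76.0% and 75.7% of the miRNA's reads at 2M and 80.1%, 80.5% and 80.9% at 18M, where the share is that of the substituted read in the sum of both forms. These reads were 215 RPM in 96 sequences, all in the mRNA class, and were named for 8 genes led by Trpm3, Castor2 and Clmn. Base 7 is the last of the seed, and the change took the seed from AGGCUA, of viability 65.0%, to AGGCUG, of viability 55.3%. The 18M libraries lay above the 2M libraries, and the log2 ratio of the substituted to the reference read, each with 1 RPM added, was higher by 0.42 (SE 0.06, limma adjusted p = 0.0214, n = 3 each). let-7b-5p A10G was 0.655%, 0.581% and 0.579% at 2M and 0.834%, 0.796% and 0.776% at 18M. Its log2 ratio was higher by 0.41 at 18M (SE 0.07, limma adjusted p = 0.0335), and 83.7% of its RPM was in the mRNA class under the name Elp3. The changed base lies outside the seed GAGGUA, so the viability stayed at 50.3%.

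That fit took 942 substitutions of miRNAs and called 3, or 0.318%, all higher at 18M, and of the 57 with at least 50% of their RPM in the mRNA class it called 2. It was added after the data had been seen. Of the 57, 8 had ages that did not overlap, beside 13.9% of the 942, and 7 had an unadjusted p under 0.05, beside 8.6%. miR-222-3p A15G, named Atp2a1, was 0.295% ± 0.028 at 2M and 0.391% ± 0.026 at 18M and did not pass (SD, n = 3; log2 ratio 0.39, SE 0.08, limma adjusted p = 0.125). miR-376b-3p A6G was 71.7% ± 2.77 and 76.7% ± 1.12 (limma adjusted p = 0.363), and only 0.623% of its RPM was in the mRNA class, under F8 and 2 other names. miR-1251-5p A6G overlapped between ages at 16.1% and 17.4%, and miR-22-3p A15G was at 0.137% and 0.132%. Both calls depended on single libraries. With each library left out in turn the limma adjusted p ranged from 0.0328 to 0.130 for miR-3099-3p A7G and from 0.0328 to 0.294 for let-7b-5p A10G, and leaving out any library but 2M replicate 1 gave 0 calls among the 57. A fit without the trend in variance also gave 0 calls, with 7 substitutions at an unadjusted p under 0.05.

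**Figure D3:**
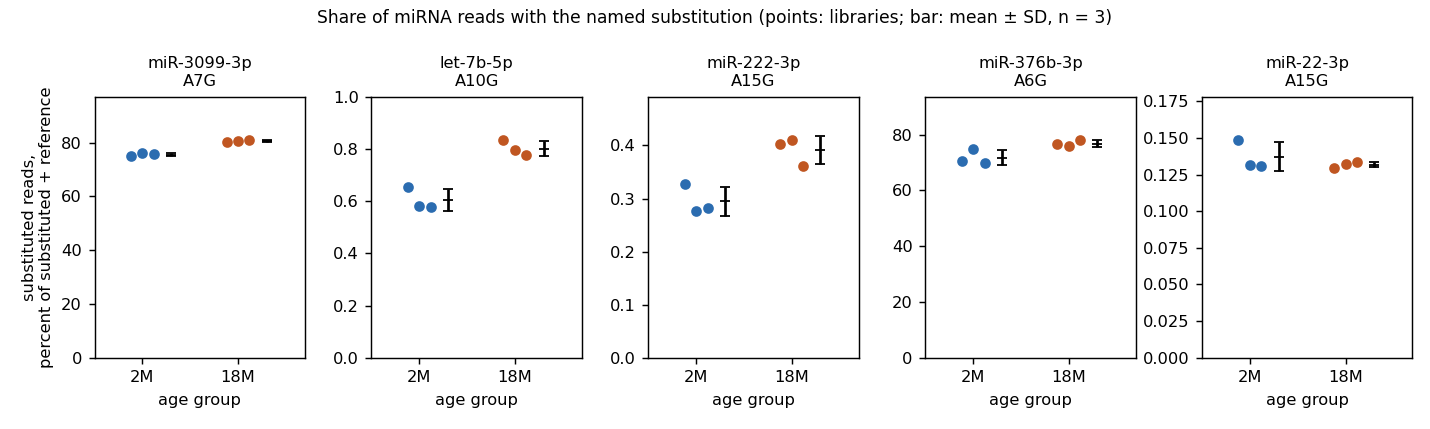
Share of the substituted form in the reads of 5 miRNAs, in percent, with 1 point per library at 2M and 18M and a bar for the mean ± SD of each age. For miR-3099-3p A7G the 2M libraries lie between 74.8% and 76.0% and the 18M libraries between 80.1% and 80.9%.

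Exact pieces of the named mRNA were few and uneven. The 1034 sequences belonged to 405 genes, the 10 largest genes held 60.9% of their 200 RPM, and 264 sequences, with 28.5% of the RPM, occurred in more than 1 gene. By place in the transcript 48.7% of the RPM lay in coding sequence, 20.4% in 3′ UTRs, 12.3% in 5′ UTRs and 18.5% in transcripts with no coding sequence. Tnrc6b, which encodes a GW182 family protein, led with 55.8, 48.6 and 39.3 RPM at 2M and 48.7, 36.0 and 43.8 RPM at 18M. Its ages overlapped (47.9 ± 8.28 against 42.8 ± 6.44 RPM, SD of 3 libraries, p = 0.5 by exact permutation). All of this RPM lay in coding sequence, and 90% of it began within a window of 118 nt between codons 675 and 714, which is 2.17% of the coding length. The pull-down used a peptide of the same protein family, named Flag-GST-T6B in the study's methods. The part of that peptide in these reads was not tested.

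Other exact pieces had fixed 5′ ends. mt-Co1, a subunit of cytochrome c oxidase encoded in the mitochondrion, had 10.6, 11.8 and 11.5 RPM at 2M and 16.8, 6.35 and 11.3 RPM at 18M, and 92.2% of it began at the same base, as in the read at chrM:6153-6171. Reads of mt-Atp8 all began at the first base of the coding sequence (2.36 RPM, chrM:7766-7785 for the read above), and those of mt-Nd4l did so for 91.8% of 1.93 RPM. Wdr45b had a single start in its 5′ UTR (2.96 RPM, chr11:121354353-121354372, minus strand). Ctsl, the gene of the lysosomal protease cathepsin L, had 2.95, 3.55 and 2.77 RPM at 2M and 1.97, 1.54 and 1.42 RPM at 18M, mostly from 1 start in the 5′ UTR (chr13:64370266-64370287, minus strand). Every 2M value was above every 18M value (p = 0.1 by exact permutation, the smallest possible, not adjusted). Ctsl was picked as an example from the 405 genes with exact pieces, and the others that separated were not counted. Selenom, a selenoprotein gene, had 2.41 RPM (chr11:3516980-3517001, plus strand), and the Tppp read lay in the 3′ UTR at chr13:74031889-74031909. Adarb2 (27.4 RPM) and Hif3a (20.1 RPM) were larger, but 93.8% of the Hif3a RPM occurred in more than 1 gene, and 61.2 RPM of it was in 18M replicate 1.

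Reads exact only in a transcript other than the named one often came from other classes of RNA. The lincRNA 5330434G04Rik matched 38.7 RPM, mostly of reads named Hfe2, with 42.1, 42.4 and 34.7 RPM at 2M and 48.8, 27.4 and 36.6 RPM at 18M. Mitochondrial tRNAs followed, with 21.5 RPM for mt-Ty, of which 12.4 RPM also matched Cep295, 10.3 RPM for mt-Tq under names such as Trim27 and 3.88 RPM for mt-Tp. The vault RNA Vaultrc5 matched 3.68 RPM, led by a read named Map4k3. By nearest neighbour in the table, 387 sequences with 156 RPM stood 1 substitution from a read of the tRNA class, and 3.47% of the RPM ended with CCA, the 3′ end of mature tRNAs, beside 5.89% of reads with a miRNA label.

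The genes with no match included some of the largest. Mfsd11, a transporter-like gene, had 356, 166 and 215 RPM at 2M and 361, 226 and 270 RPM at 18M, of which 99.97% had no match. Mfsd11 held 65.3% of the RPM of the seed GCCUGG, of viability 33.2%, and 99.7% of all RPM of that seed in the table was in these reads. With a mean of 377 RPM it led the 3329 distinct seeds only through 18M replicate 1, where it stood at 931 RPM, 551 RPM of it named Gm12405. Over the other 5 libraries it averaged 266 RPM, and the seed AGCUGC of miR-22-3p averaged 270.4 RPM. Mtx3, a metaxin gene, had 150, 144 and 118 RPM at 2M and 138, 82.0 and 88.8 RPM at 18M. Glb1l2, a beta-galactosidase-like gene, had 98.8, 126 and 51.2 RPM at 2M and 97.1, 152 and 125 RPM at 18M. All RPM of Mtx3 and Glb1l2 had no match, and the ages overlapped for all 3 genes.

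Of the 100 genes with at least 10 RPM, 5 were high in 1 library, over 5 times the mean of the other 5. Gm12405 had 560 RPM in 18M replicate 1 and at most 14.6 RPM elsewhere, and Plec had 104 RPM in the same library and at most 14.3 RPM elsewhere. Gm5834 and Zbtb38 had 160 and 93.3 RPM in 2M replicate 3 and at most 0.095 and 0.467 RPM in any other, and Gm11505 had 48.0 RPM in 2M replicate 2. At least 99.7% of the RPM of each of the 5 had no match. In 2M replicate 3 a form of miR-21a-3p with 1 substitution at base 6 was also high, at 52.8 RPM beside 0.334 and 0.319 RPM in the other 2M libraries and 9.23, 1.07 and 6.03 RPM at 18M. The reference form of that miRNA was between 9.15 and 12.5 RPM in all 6. Leaving out the 5 genes gave library shares of 0.724% ± 0.043 for 2M and 0.683% ± 0.131 for 18M (SD of 3 libraries, p = 0.6 by exact permutation).

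**Figure D4:**
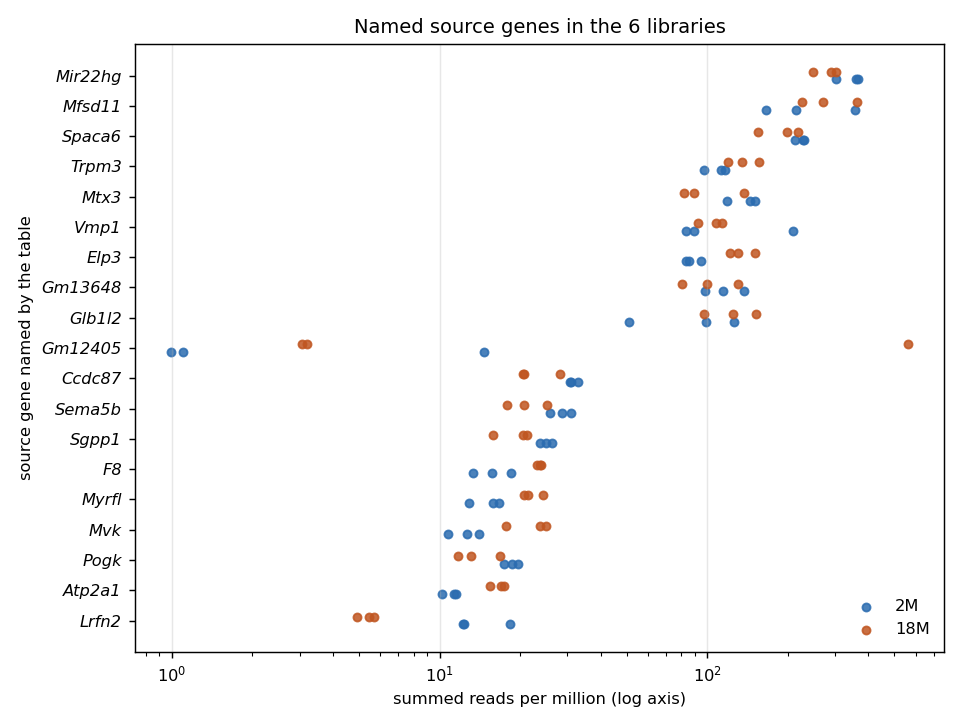
RPM of the named source genes in each library on a log axis, with 1 point per library at 2M and 18M. Gm12405 reaches 560 RPM in 18M replicate 1 and stays at or below 14.6 RPM elsewhere, and the Elp3 libraries at 18M all lie above those at 2M.

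The reads were spread over more lengths and started less often with T than reads with a miRNA label. Reads of 21 to 23 nt made up 42.8% ± 1.92 of their RPM and 84.5% ± 0.579 of the RPM with a miRNA label (SD, n = 6 libraries), a difference of -41.8 percentage points, lower in 6 of 6 libraries (exact two-sided sign-flip permutation test, p = 0.03125, the smallest possible with 6, and the same after adjustment over 8 comparisons). Reads of 20 nt or less held 40.7% here and 11.4% of the RPM with a miRNA label, and reads of 24 nt or more held 16.6% and 4.05%. No read of 15, 16 or 17 nt carried a miRNA label, while these lengths held 0.993%, 2.63% and 3.79% of the RPM here. The label may thus depend on length itself, and its part in the length difference was not tested. T was the first base in 44.2% ± 4.03 against 73.4% ± 1.74, lower in 6 of 6 libraries (exact permutation test, adjusted p = 0.03125). The seeds were richer in G, at 34.7% ± 0.795 of seed bases against 24.7% ± 0.478, in 6 of 6 libraries (exact permutation test, adjusted p = 0.03125). With only the exact pieces of the named transcript the G difference was 2.71 percentage points (exact permutation test, p = 0.0625). By match, G made up 38.1% of seed bases in reads with no match, 26.2% at 1 change and 30.5% at 2 changes from a hairpin. It was 27.6% in exact pieces of the named transcript, 21.3% in exact matches to another and 25.9% exactly within a hairpin. Within the class 73.4% of the RPM 1 change from a hairpin was of 21 to 23 nt, 58.9% of the RPM exact in another transcript, 31.7% of the RPM with no match and 19.2% of the RPM exactly within a hairpin. Reads under 18 nt could not enter the first 2 of these groups by construction.

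The seeds of these reads had lower viability. The mean seed viability, weighted by RPM, was 51.7% ± 1.27 against 57.9% ± 0.263 for reads with a miRNA label and 57.4% ± 0.197 for the other unlabelled reads (SD, n = 6 libraries). The differences were -6.27 and -5.71, lower in 6 of 6 libraries for each (exact sign-flip permutation test, adjusted p = 0.03125). Differences from the other unlabelled reads were also of the same sign in 6 of 6 libraries for length (-32.1 percentage points at 21 to 23 nt), T start (-14.6) and seed G content (7.44), each with adjusted p = 0.03125 in the exact permutation test, and with only the exact pieces the last became 0.165 (exact permutation test, p = 0.90625). Seeds with a viability from 10 to 20 held 8.98% of the RPM, against 2.29% of the RPM with a miRNA label. The seed AGCUGC of miR-22-3p, of viability 14.3%, held 270 RPM, of which 88.1% was named Mir22hg. By match, the mean viability was 50.4% for reads with no match, 54.0% for reads 1 change from a hairpin, 55.7% for exact pieces of the named transcript and 60.1% for exact matches to other transcripts.

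**Figure D5:**
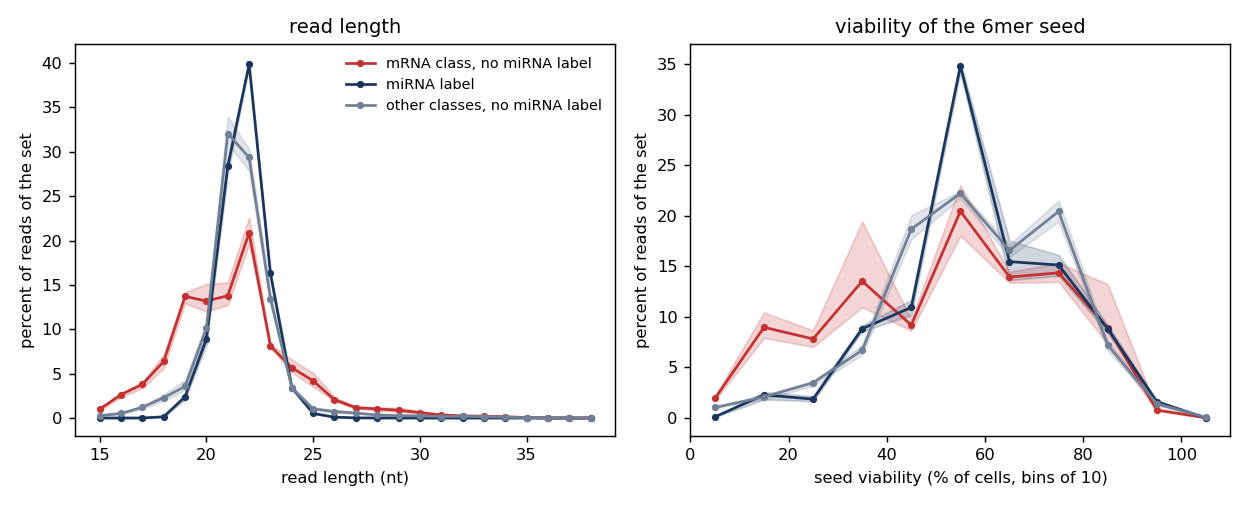
Length distribution in nt and distribution of 6mer seed viability in percent, each as a percent of RPM, for reads of the mRNA class without a miRNA label, reads with a miRNA label and other unlabelled reads, as means of 6 libraries, with shading from the lowest to the highest. At 22 nt the first hold 20.9% and the miRNA-labelled reads 39.9%.

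None of 9 summary measures of these reads passed between 2M and 18M after adjustment. Mean seed viability was 51.2%, 51.4% and 53.9% at 2M and 50.2%, 52.1% and 51.2% at 18M, and the ages overlapped (exact permutation test, p = 0.4, adjusted p = 0.5625). The share of RPM with a viability of at least 70 was 23.9%, 24.1% and 28.1% at 2M and 21.5%, 23.8% and 23.2% at 18M. The share of 21 to 23 nt was 40.5%, 41.7% and 41.3% at 2M and 44.4%, 45.4% and 43.2% at 18M. For both shares no 2M library lay within the 18M range (p = 0.1 by exact permutation for each, the smallest possible, adjusted p = 0.3). The share in the 10 largest genes was 20.7%, 19.2% and 20.9% at 2M and 23.7%, 25.4% and 21.2% at 18M, but the 10 genes were picked on these libraries and include Gm12405, which is high only in 18M replicate 1. Leaving out the 5 genes high in 1 library gave 21.9%, 20.3% and 22.8% at 2M and 19.9%, 26.2% and 22.6% at 18M, which overlapped (p = 0.7 by exact permutation). The share under 40 (31.2% ± 2.37 and 33.4% ± 3.17), the median viability, the T start and the G content overlapped.

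By gene, a limma fit on log2(RPM + 1) over 2133 named sources of all classes called 3, or 0.141%, and none of the 1057 genes described here. A fold change on that scale understates the change of low genes. Without adjustment 53 of the 1057 genes had p under 0.05, beside 9.66% of all 2133 sources. Of the 53, 26 were higher and 27 lower at 18M, beside 3.75% and 5.91% of all sources. On recovered reads edgeR called 0 of the 1057 genes, beside 4 of all 2133 sources. DESeq2 called 6 of the 1057, beside 40 of all 2133. The ages did not overlap for 113 genes (10.7%), beside 16.9% of all 2133. The median log2 difference was -0.11 for the genes and -0.08 over all sources. By read, 3281 sequences of at least 10 RPM gave 12 calls (0.366%), none among the 63 described here, of which 11 had an unadjusted p under 0.05, beside 13% of all. Of the 11, 6 were higher and 5 lower at 18M, beside 8.41% and 4.63% of all, and 20 of the 63 did not overlap (31.7%), beside 21%. edgeR called 0 and DESeq2 1 of the 63, beside 9 and 151 of all 3281.

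The genes with the largest gains and losses were picked by their difference in mean RPM, from those whose ages did not overlap and whose unadjusted p was under 0.05. Elp3 was higher by 0.60 on the log2 scale at 18M (SE 0.14, limma adjusted p = 0.177), while reads labelled let-7b-5p went from 16564 ± 409 RPM to 19279 ± 2624 RPM (SD of 3 libraries, limma adjusted p = 0.637). Mvk, mevalonate kinase of the sterol pathway, had 12.7, 10.8 and 14.0 RPM at 2M and 25, 17.8 and 23.7 RPM at 18M (log2 0.77, SE 0.18, limma adjusted p = 0.177). Its reads were 91.8% 1 change from Mir29a, mainly the form with 1 A less shown above, and reads labelled miR-29a-3p were at 29030 ± 1930 RPM and 39703 ± 8028 RPM (limma adjusted p = 0.480). F8, coagulation factor VIII, had 18.5, 15.7 and 13.3 RPM at 2M and 23.9, 23.7 and 23.1 RPM at 18M, with 76.2% of it 2 changes from Mir376b. Myrfl, with 86.1% of its RPM near Mir3099, and Atp2a1, a sarcoplasmic calcium pump gene with 88.5% near Mir222, were higher by 0.53 and 0.55 (limma adjusted p = 0.281 and 0.210). None of these 5 gains passed in limma, while DESeq2 on recovered reads called Mvk (log2 0.90, DESeq2 adjusted p = 0.0112) and 1 read of Elp3 (log2 0.86, DESeq2 adjusted p = 6.11e-06). In each the largest part of the RPM was within 2 changes of a miRNA hairpin.

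Among the losses Lrfn2, a synaptic adhesion gene, was the largest on the log2 scale, with 12.2, 18.3 and 12.3 RPM at 2M and 4.93, 5.72 and 5.44 RPM at 18M (log2 -1.24, SE 0.19, limma adjusted p = 0.0855), and DESeq2 called it (DESeq2 adjusted p = 0.00104). Sema5b, a semaphorin gene, had 28.7, 30.9 and 25.9 RPM at 2M and 25.3, 20.6 and 17.8 RPM at 18M. Ccdc87, Sgpp1 and Pogk differed by -0.44, -0.37 and -0.41 on the log2 scale (limma adjusted p from 0.431 to 0.508). All 5 had at least 96.7% of their RPM with no match. The genes with gains and losses stood in different match groups, and both were chosen by their values.

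Lists of brain genes held few of these reads, and none of their tested members was called by limma. Of 20 neuronal genes 9 had reads, summing to 8.45 RPM, of which 1.18 RPM was exact, and Snap25, Syt1 and Rbfox3 were among the 11 with none. The lists of mitochondrially encoded, ribosomal protein and histone genes held only symbols found in these reads, so they do not measure coverage. The 12 mitochondrially encoded mRNAs so found summed to 32.5 RPM with 20.95 RPM exact. Their sums overlapped between ages, from 25.5 to 37.9 RPM at 2M and from 24.7 to 46.0 RPM at 18M. The 5 tested had a median log2 difference of 0.42, and mt-Co1, with 20.99 RPM the largest, was at -0.12. The 15 ribosomal protein genes found summed to 7.02 RPM and the 4 histone genes to 0.443 RPM with no exact read. Of 13 RISC and miRNA biogenesis genes 8 had reads, summing to 56.5 RPM, most of it Tnrc6b. Of 33 host genes of brain miRNAs 19 had reads, 157 RPM with 0.324 RPM exact. Of the 157 RPM, 123 RPM was named Trpm3, whose reads stood nearest to miR-3099-3p, a miRNA its transcript does not hold. Mcm7 had 27.3 RPM, of which 10.1 RPM was near its own Mir93. The sum is therefore not a measure of the miRNAs these genes host. Markers of neurons (2 of 8 with reads, 1.05 RPM), astrocytes (3 of 8, 8.97 RPM), oligodendrocytes (4 of 8, 4.05 RPM), microglia (1 of 8, 0.655 RPM), endothelium (3 of 6, 12.7 RPM) and erythrocytes (1 of 5, 0.177 RPM) had at most 0.0398 RPM of exact reads. Those of choroid plexus, pituitary and muscle had no read. The brain markers are therefore nearly absent as exact pieces, and these reads do not serve to check the tissue label.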

How the data were processed

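Per the submitters' processing notes and the study's methods, the authors trimmed reads with Trim Galore, removed rare reads, annotated the rest with BLAST in the SPOROS pipeline and scaled each library to a fixed total. The deposited values are RPM per read sequence and library, and each sequence carries a deposited seed viability score. All RPM values (100%) came out as whole reads within 0.02 of the step of 1 read. Sequences were summed by named gene and compared with 1005 RefSeq hairpins (GRCm38.p6) and GENCODE M21 transcripts using edlib 1.3.9.post1, allowing 1 change from 18 nt and 2 changes from 20 nt. Rows without a name (0.130% of RPM) were left out of gene sums. Tests were exact permutations and limma 3.58.1 on log2(RPM + 1), with means of at least 10 RPM for reads and 1 RPM for genes and Benjamini-Hochberg adjustment at 0.05. The fit of substitutions took means of at least 5 RPM for the substituted and 50 RPM for the reference read. On recovered reads edgeR 4.0.16 called 0 reads and 0 genes of this class, beside 9 of all 3281 reads and 4 of all 2133 sources. DESeq2 1.42.0 called 1 read and 6 genes of this class, beside 151 of all 3281 reads and 40 of all 2133 sources. Scripts were tested on simulated data. Genes named by rule are the 10 with the highest mean RPM and up to 5 gains and 5 losses in mean RPM with an unadjusted p under 0.05 and no overlap of ages. Other genes were named as examples of the match groups, the substitutions, the gene lists and the genes high in 1 library. The class, its gene lists and the substitution test were chosen with earlier results of these data known.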

Additional observations from a re-analysis of the deposited data

How the results depend on the processing

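Of 173 alternatives, leaving out libraries apart, 158 kept their direction and side of the threshold. For age differences in the 9 summary measures the exact permutation test cannot give a p under 0.1. There no alternative could cross the threshold of 0.05, and only the direction could change. Taking only reads exact in the named transcript, an alternative chosen after seeing the data, reversed the 18M minus 2M differences in share of the library (0.000234 percentage points), mean (1.55) and median seed viability (3.93), share under 40 (-2.87), share of 21 to 23 nt (-0.783), T start (-0.339) and seed G content (-2.33). It also ended the call on seed G content against reads with a miRNA label (2.71) and other unlabelled reads (0.165). A viability limit of 30 in place of 40 reversed that share (-1.57). None of these age differences was called. DESeq2 called 1 read, of Elp3 (log2 0.86, adjusted p = 6.11e-06), beside 151 of all 3281 reads. It called 6 genes, beside 40 of all 2133 sources, which were Adam4, Lrfn2, D330023K18Rik, Map4k3, Mvk and Slc36a1 in this class. Calls among the substitutions, a test added after seeing the data, fell from 2 to 1 with a pseudocount of 5 RPM and to 0 without the trend, and ranged from 0 to 3 with 1 library left out. The cause was not tested.

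With each library left out, the age difference ranged from -0.124 to 0.0367 for the share of the library (reversed without 18M replicate 2), from -0.0469 to 5.77 for the T start (reversed without 18M replicate 2) and from -0.38 to 0.27 on the log2 scale for Vmp1 (reversed without 2M replicate 3). Against reads with a miRNA label the differences ranged from -6.67 to -5.97 for viability, -42.3 to -41.2 for length, -29.9 to -28.3 for T start and 9.61 to 10.1 for G content. Against other unlabelled reads they ranged from -6.17 to -5.38, -32.9 to -31.5, -15.5 to -14.1 and 7.09 to 7.61. With 5 libraries the smallest p the exact sign-flip permutation test can give is 0.0625, so the p-values of these fits say nothing about stability. The differences against both sets kept their sign in every fit. The replicate numbers did not pair the samples, since deviations of same-numbered libraries correlated between -0.15 and -0.08 over genes and between -0.14 and -0.09 over reads. A replicate block gave 0 reads, 0 genes and 0 substitutions called, and p of at least 0.25 (the smallest possible with 3 pairs) for the summary measures. Depth limits reads of few counts, since 3 reads were 0.120 to 0.156 RPM.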
